A study of Homo sapiens with 8 samples.

Results

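TPX2 is a spindle assembly factor, and it was followed here together with 9 genes that act with it at the mitotic spindle: AURKA, AURKB, BORA, PLK1, KIF11, KIF15, HMMR, NUMA1 and BIRC5. These 10 genes were taken by symbol from the 60675 genes of the deposited tables, and all 10 passed the filter on low counts that left 19499 genes for testing. RNA came from H9 hESCs (WA09), a human embryonic stem cell line grown feeder-free in mTeSR1 medium on Matrigel, and no sample was given any other treatment. The samples were labelled P1 (passage 40s), P2 (passage 100s), P3 (passage 200s) and P4 (passage 300s), with 2 samples per line. The late lines P3 and P4, unlike P1 and P2, were described as carrying a copy number gain of the band that holds TPX2 (20q11.21). All lines are H9 cells, so time in culture and the gain cannot be told apart, and the labels do not say whether the 2 samples of a line came from separate cultures, so that p-values measure only the spread between these samples. The question put to the data was whether the partners, all of which lie outside 20q11.21, followed TPX2.

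In a dividing cell, importins hold TPX2 inactive until Ran-GTP, which forms around the chromosomes, releases it. Free TPX2 binds the kinase Aurora A, the product of AURKA, switches it on and guides it to spindle microtubules. Bora helps Aurora A to activate the kinase PLK1 before mitosis begins, the motor KIF11 (Eg5) pushes the spindle poles apart, and Aurora B works at the centromere in the chromosomal passenger complex with survivin, the product of BIRC5. Most of these genes are transcribed in G2 and M phase, when the MuvB complex with B-MYB and FOXM1 acts at their promoters, often at a CHR element or a CCAAT box.

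By GENCODE release 29 on GRCh38, TPX2 spans chr20:31739271-31801805 on the forward strand, within 20q11.21. AURKA lies on the same chromosome in band 20q13.2, at chr20:56369389-56392337 on the reverse strand, and the starts of both genes are 24.6 Mb apart. The other partners are on chromosomes 17 (AURKB and BIRC5), 13 (BORA), 16 (PLK1), 10 (KIF11), 3 (KIF15), 5 (HMMR) and 11 (NUMA1). Thus 1 of the 9 partners shares a chromosome with TPX2 and none shares its band.

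RefSeq promoter sequences (GRCh38.p14, 250 bases before to 50 after the start) were found for 7 of the 10 genes, and those of TPX2, AURKA and BIRC5 were not among them. The letters TTTGAA, the core of the CHR element, were searched on both strands and occurred in 5 of the 7 promoters, compared with 15.2% of 35116 promoters of that length. Within the last 80 bases before the start they occurred in 4 of 7, compared with 3.57% of all promoters. The letters CCAAT, searched in the same way, occurred in that window in 5 of 7, compared with 14.7% of all promoters. The 80 bases before the start of these 4 partners are shown because they hold the core letters of this G2/M promoter element close to the start, with every match to TTTGAA or CCAAT on either strand in capitals. A match is a description of the sequence and not evidence of binding. The windows are PLK1 at chr16:23678809-23678888, HMMR at chr5:163460552-163460631, KIF11 at chr10:92593050-92593129 and KIF15 at chr3:44761714-44761793, all on the forward strand.
PLK1: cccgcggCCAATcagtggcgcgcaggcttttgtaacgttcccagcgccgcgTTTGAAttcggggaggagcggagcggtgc
HMMR: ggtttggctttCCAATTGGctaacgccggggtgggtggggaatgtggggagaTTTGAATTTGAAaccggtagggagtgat
KIF11: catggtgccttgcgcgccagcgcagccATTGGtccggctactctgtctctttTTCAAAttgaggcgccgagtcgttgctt
KIF15: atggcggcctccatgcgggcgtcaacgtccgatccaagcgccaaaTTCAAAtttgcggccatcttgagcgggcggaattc
The first letter of the TTTGAA match lay 29 bases before the start in PLK1, 28 in KIF11 and 35 in KIF15. HMMR held the letters in tandem, beginning 28 and 22 bases before the start. In HMMR the CCAAT matches on both strands overlap each other. KIF15 had no CCAAT match in its 300 bases. In BORA the TTTGAA match lay further off, 177 bases before the start, and AURKB and NUMA1 had none in their 300 bases.

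The 8 samples held between 26874899 and 38095600 expected counts, and the members had between 641 and 22585 expected counts in each sample. Mitochondrial genes took 5.89% to 18.5% of the counts, with the high shares in P1 replicate 2 (18.5%), P3 replicate 1 (18.4%) and P4 replicate 1 (17.2%). The cells had the markers of undifferentiated hESCs, with POU5F1 at 1095 to 2421 TPM, and their 8 markers summed to 2604 to 3929 TPM in P1 and P2 and 2675 to 4312 TPM in P3 and P4 hESCs. The 5 neuroectoderm markers summed to 0.73 to 1.53 TPM and the 8 mesendoderm markers to 1.53 to 4.46 TPM over all samples. Among the mesendoderm markers, FOXA2 was at 2.72 and 3.63 TPM in P3 hESCs and at 0.08 to 0.53 TPM in the other lines. EOMES went the other way, at 0.03 and 0.04 TPM in P3, 0.26 and 0.32 in P4, and 0.28 to 1.52 in P1 and P2 hESCs. The 5 trophoblast markers summed to 11.95 to 19.1 TPM in P1 and P2 and to 5.56 to 11.9 TPM in P3 and P4 hESCs, mostly from KRT7. The 6 fibroblast markers summed to 143 to 227 TPM in P1 and P2 and to 89.5 to 128.5 TPM in P3 and P4 hESCs, almost all of it from COL1A1 and COL1A2, while DCN and LUM stayed below 0.2 TPM. The part of these markers in the results was not tested, and in RNA of a whole culture a change in the share of dividing cells cannot be told apart from a change in RNA per cell.

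TPX2 rose in P3 and P4 hESCs, and none of its 9 partners passed the same test. Levels are given in CPM, each count set relative to the library total after TMM scaling. TPX2 was at 142 and 99.7 CPM in P1, 142 and 166 in P2, 608 and 630 in P3, and 435 and 590 in P4 hESCs. Every P3 and P4 sample thus lay far above every P1 and P2 sample, and P1 replicate 2 was the lowest of all. The mean went from 138 ± 27.7 CPM (SD, n = 4) to 566 ± 88.9 CPM (SD, n = 4). This is a log2 fold change of 2.04 (SE 0.19, 95% interval 1.63 to 2.45), or 4.11-fold, with an adjusted p of 1.27e-04 (quasi-likelihood test of edgeR, p-values adjusted by Benjamini and Hochberg's method over the 19499 genes). A gene counted as a DEG where its log2 fold change lay beyond 1 in either direction with an adjusted p below 0.01. TPX2 was the only DEG among the 10 genes, where 2.20% of all genes tested were DEGs in either direction. The two-sided exact permutation test of its level gave p = 0.0286, the smallest that 4 against 4 samples allow. Here and below, that test moves single samples and so takes the 2 samples of a line as independent.

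**Figure D1:**
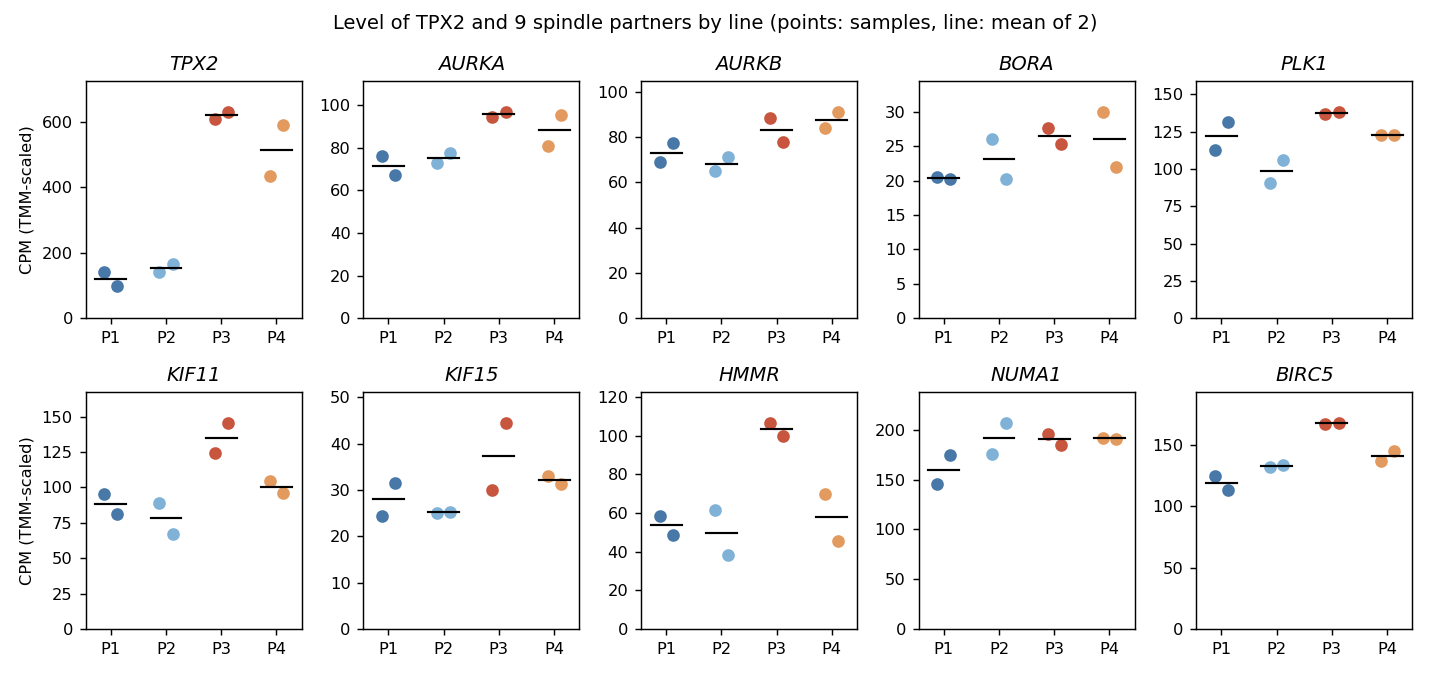
Level of each of the 10 genes (vertical axis, CPM, from 0) in P1, P2, P3 and P4 hESCs. Points are samples and lines the mean of 2 samples; TPX2 separates P3 and P4 from P1 and P2 hESCs by a wide gap, and HMMR has its highest mean in P3 hESCs, with P4 replicate 2 inside the range of P1 and P2 hESCs.

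The log2 fold changes of the 9 partners were all above 0 and ran from 0.12 in NUMA1 to 0.64 in HMMR, with a median of 0.30, where the median of all genes tested was 0.01. At an adjusted p below 0.05 without a minimum fold, which 7.54% of all genes tested passed, TPX2 was again the only one of the 10 in edgeR. Before adjustment, 6 of the 9 partners had p below 0.05 in edgeR, and 1 partner, KIF11, passed after adjustment in DESeq2. The share of all genes was not counted for either setting, so these counts cannot be set against a background. The 95% interval of TPX2 began at 3.09-fold, and the highest upper bound of a partner was 2.29-fold, in HMMR. Rises of the size of that in TPX2 were therefore outside the intervals of all 9 partners, while a rise of 1.33-fold, the lowest of the upper bounds, was above none of them.

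**Figure D2:**
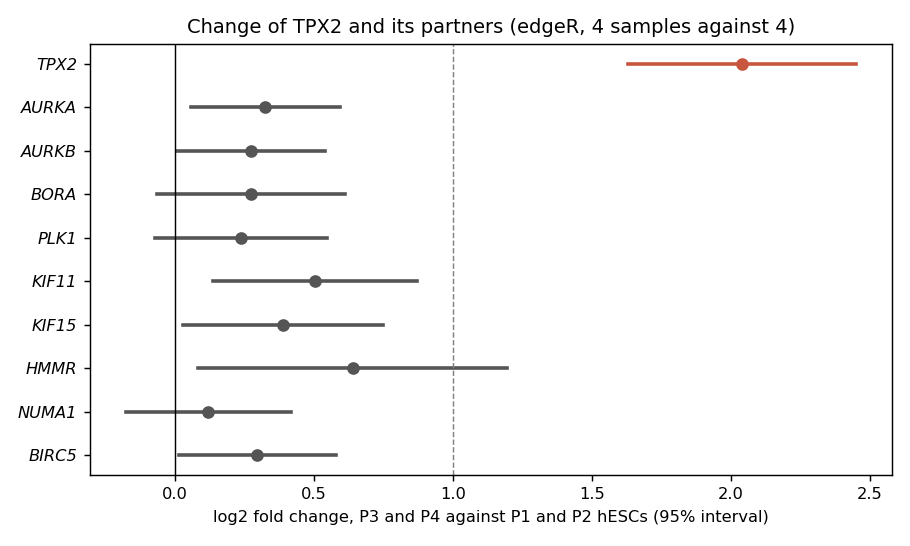
Log2 fold change of each gene in P3 and P4 against P1 and P2 hESCs (horizontal axis), with bars for the 95% interval and the dashed line at a log2 fold change of 1. TPX2 stands at 2.04 with an interval that meets none of the others, and the partners lie between 0.12 and 0.64.

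Among the Aurora kinases, AURKA was at 75.9 and 67.0 CPM in P1, 72.9 and 77.6 in P2, 94.4 and 96.7 in P3, and 81.0 and 95.4 in P4 hESCs. The P3 and P4 samples were all higher, with the lowest of them, P4 replicate 1, close to P2 replicate 2. The log2 fold change was 0.32 (SE 0.12, 95% interval 0.06 to 0.59) and the adjusted p 0.127 in edgeR's test. AURKB, the centromere kinase, was at 68.9 and 77.3 CPM in P1, 64.8 and 71.4 in P2, 88.3 and 77.7 in P3, and 84.0 and 91.1 in P4 hESCs. Here the groups stood apart by less than 1 CPM, and the log2 fold change was 0.27 (SE 0.12, adjusted p = 0.189 in edgeR's test). AURKA has the pseudogenes AURKAP1, listed at 12.9 to 69.7 expected counts per sample, and AURKAP2, listed at 0, against 2128 to 3468 for AURKA itself.

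BIRC5 encodes survivin, the passenger complex subunit that brings Aurora B to centromeres. Its level was 125 and 114 CPM in P1, 132 and 134 in P2, 168 and 168 in P3, and 137 and 145 in P4 hESCs. The groups did not overlap, and P3 hESCs were the highest. The log2 fold change was 0.30 (SE 0.13, adjusted p = 0.178 in edgeR's test).

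The groups were less well separated in BORA and PLK1. BORA, the cofactor through which Aurora A activates PLK1, ranged from 20.2 to 26.0 CPM in P1 and P2 and from 22.0 to 30.0 CPM in P3 and P4 hESCs. Its log2 fold change was 0.27 (SE 0.15, adjusted p = 0.292 in edgeR's test). PLK1, the kinase that promotes centrosome maturation and mitotic entry, ranged from 90.9 to 132 CPM and from 122 to 138 CPM in the same groups. Its log2 fold change was 0.24 (SE 0.14, adjusted p = 0.317 in edgeR's test). Both genes overlapped between the groups. BORA shares its locus with DIS3 on the other strand, at a mean of 2543.5 expected counts against 641 to 1067 for BORA itself. PLK1 shares its locus with ERN2, at a mean of 77.5 against 3568 to 4957 for PLK1. It is not known whether the counting used the strand, and a part of DIS3 in the BORA counts was not tested.

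The spindle motors had larger but more scattered differences. KIF11, which slides antiparallel microtubules apart and is also a phosphorylation target of Aurora A, was at 95.2 and 80.9 CPM in P1, 89.2 and 67.0 in P2, 125 and 146 in P3, and 105 and 96.3 in P4 hESCs. Its groups did not overlap, although P4 replicate 2 was only just above P1 replicate 1. The log2 fold change was 0.50 (SE 0.17, 95% interval 0.14 to 0.87) with an adjusted p of 0.0888 in edgeR's test, 0.0458 in DESeq2 and 0.0371 with the 4 lines as 4 groups, and 0.0371 to 0.417 over all alternatives. KIF15, the kinesin that can take over spindle separation when KIF11 fails and that is brought to the spindle by TPX2, ranged from 24.3 to 31.6 CPM in P1 and P2 and from 30.0 to 44.5 CPM in P3 and P4 hESCs. Its log2 fold change was 0.39 (SE 0.16, adjusted p = 0.169 in edgeR's test), and the groups overlapped.

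At the spindle poles, HMMR, whose product RHAMM binds TPX2 and helps to place it at the poles, was at 58.6 and 48.6 CPM in P1, 61.6 and 38.1 in P2, 107 and 100 in P3, and 70.0 and 45.6 in P4 hESCs. Both P3 samples and P4 replicate 1 lay above every P1 and P2 sample, and P4 replicate 2 lay below 3 of the 4 P1 and P2 samples. The log2 fold change over both lines was 0.64 (SE 0.25, adjusted p = 0.143 in edgeR's test), and without P4 replicate 2 it was 0.84 with an adjusted p of 0.0277, the lowest of a range up to 0.548 over all alternatives. NUMA1, whose product focuses microtubules at the poles and links them to dynein, was at 146 and 175 CPM in P1, 176 and 207 in P2, 196 and 185 in P3, and 192 and 191 in P4 hESCs. The P3 and P4 samples lay within the range of P1 and P2 hESCs, and the log2 fold change was 0.12 (SE 0.13, adjusted p = 0.618 in edgeR's test). NUMA1 overlaps IL18BP and LRTOMT on the other strand, at means of 461 and 181 expected counts against 5081 to 7399 for NUMA1 itself.

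All P3 and P4 samples were above all P1 and P2 samples in 5 of the 10 genes, TPX2, AURKA, AURKB, KIF11 and BIRC5, where 8.38% of all genes tested had this order. In each of the 5 the two-sided exact permutation test gave p = 0.0286. This p was 0.0857 for BORA, PLK1 and KIF15, 0.143 for HMMR and 0.286 for NUMA1 in the same exact test. In TPM, which is scaled by length and library total without TMM factors, the groups were apart in TPX2 alone.

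By line, TPX2 differed little between P1 and P2 hESCs, with a log2 fold change of 0.35 (adjusted p = 0.667 in edgeR's test). Against P1 hESCs it rose by 2.36 on the log2 scale in P3 hESCs (adjusted p = 9.42e-05) and by 2.08 in P4 hESCs (adjusted p = 2.84e-04), both in edgeR's test. TPX2 was the only DEG of the 10 in P3 and in P4 hESCs, where 3.93% and 2.11% of all genes were DEGs, and none of the 10 was a DEG in P2 hESCs, where the share was 0%. HMMR also rose in P3 against P1 hESCs, by 0.95 on the log2 scale (SE 0.26, adjusted p = 0.0359 in edgeR's test). At that wider threshold of an adjusted p below 0.05, 2 of the 10 genes passed in P3 against P1 hESCs, with 12.5% of all genes, and TPX2 alone passed in P4 against P1 hESCs, with 5.94% of all genes. In P2 against P1 hESCs none of the 10 passed, with 0.00513% of all genes, and none had p below 0.05 before adjustment in edgeR. Against P2 hESCs, P3 hESCs had higher TPX2 (2.00), HMMR (1.05, adjusted p = 0.0243 in edgeR's test) and KIF11 (0.79, adjusted p = 0.0275), with 11.7% of all genes passing. The comparisons of P3 hESCs with P1 and with P2 hESCs share the P3 samples and are not independent.

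Between the late lines, P4 against P3 hESCs, none of the 10 genes passed an adjusted p below 0.05, which 3.31% of all genes did, and HMMR alone was below 0.05 before adjustment in edgeR. HMMR had the log2 difference furthest from 0, at -0.84 (95% interval -1.41 to -0.27, adjusted p = 0.105 in edgeR's test), and 8 of the 10 differences were below 0. The difference for TPX2 was -0.27 (95% interval -0.77 to 0.22). The partners' median against P1 hESCs was 0.42 in P3 and 0.25 in P4 hESCs, and -0.10 in P2 hESCs.

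Per transcript, in TPM, which corrects for length, TPX2 was the sixth of the 10 genes in P1 and P2 hESCs and the first in P3 and P4 hESCs. In P1 and P2 hESCs the order was AURKB at 99.6 ± 1.40 TPM (SD, n = 4 here and below), BIRC5 at 79.0 ± 17.9, PLK1 at 72.0 ± 5.26, AURKA at 53.9 ± 9.36, NUMA1 at 52.9 ± 6.20 and TPX2 at 51.2 ± 13.4 TPM. HMMR at 29.5 ± 7.95 TPM, KIF11 at 21.7 ± 4.06, BORA at 12.3 ± 2.54 and KIF15 at 10.2 ± 1.01 TPM followed. Neighbours in this order overlapped in their samples except at 2 steps, from PLK1 to AURKA and from KIF11 to BORA. In P3 and P4 hESCs TPX2 was at 193 ± 49.9 TPM and AURKB, next in order, at 108 ± 17.97 TPM, and no sample of TPX2 overlapped a sample of AURKB. The partners kept their order behind TPX2, from BIRC5 at 81.9 ± 17.8 TPM down to KIF15 at 11.7 ± 4.22 TPM.

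The stoichiometry of the transcripts therefore shifted toward TPX2. TPX2 had 0.937 and 0.802 TPM per TPM of AURKA in P1, 0.963 and 1.05 in P2, 3.40 and 3.35 in P3, and 2.82 and 3.12 in P4 hESCs. The transcripts of the kinase and of its activator were thus near parity in P1 and P2 hESCs, and TPX2 was in excess in every P3 and P4 sample. Per TPM of BIRC5, TPX2 went from 0.561 to 0.714 in P1 and P2 to 2.03 to 2.52 in P3 and P4 hESCs. Per TPM of KIF11 it went from 1.74 to 3.51 to 5.87 to 8.68. The log2 ratio of partner to TPX2, from CPM, fell in all 9 partners, by 1.46 (HMMR) to 1.92 (NUMA1), and by 1.73 for AURKA. In each partner the 4 late samples were below the 4 early ones (two-sided exact permutation test, p = 0.0286). Of all other genes tested, 91.4% showed the same fall, so the ratios describe the rise of TPX2 and do not set the partners apart from other genes.

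**Figure D3:**
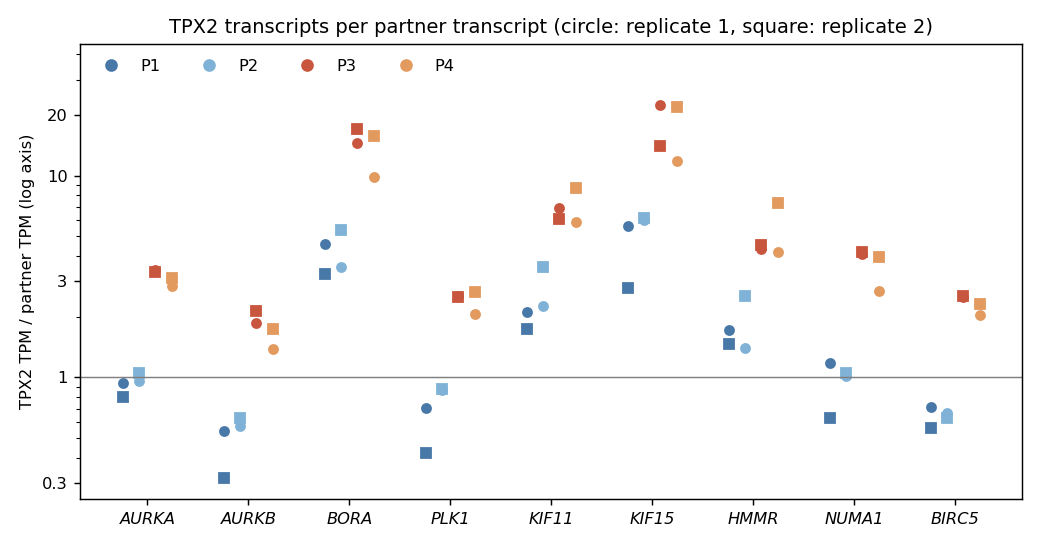
TPX2 TPM divided by partner TPM (vertical axis, log scale) for each partner in every sample, with colours for the lines, circles for replicate 1 and squares for replicate 2. For AURKA the P1 and P2 samples lie between 0.802 and 1.05 and the P3 and P4 samples between 2.82 and 3.40.

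Over the 8 samples, the log2 CPM of AURKA followed that of TPX2 most closely among the partners, with a Pearson r of 0.95, and BIRC5 was next with 0.89. AURKB and KIF11 had r of 0.76, and KIF15, BORA, HMMR, PLK1 and NUMA1 had r from 0.64 to 0.48. Among 10145 genes with a mean of at least 10 CPM, AURKA was at place 85 and BIRC5 at place 331, while NUMA1 was at place 3284. These r rest on 2 clusters of samples and are a description only. With the mean of each group of 4 taken off, r was 0.95 for AURKA and 0.85 for BIRC5, and between -0.38 and 0.20 for the others. This r was computed for the partners only, so it has no background of other genes. The log2 CPM of TPX2 lay furthest from its group mean in P1 replicate 2 (-0.44) and P4 replicate 1 (-0.37). In log2 CPM, the difference of replicate 2 from replicate 1 was -0.51, 0.23, 0.05 and 0.44 for TPX2 in P1 to P4 hESCs. It was -0.18, 0.09, 0.04 and 0.24 for AURKA and -0.13, 0.02, 0.01 and 0.08 for BIRC5 in the same lines. The sign was that of TPX2 in all 4 lines for both genes, and the size was smaller. How many of all genes shared these signs was not counted. BORA and HMMR shared the sign of TPX2 in 1 of the 4 lines. The samples with low TPX2 in CPM, P1 replicate 2 and P4 replicate 1, also had high mitochondrial shares. P3 replicate 1, at a share of 18.4%, had 608 CPM of TPX2 against 630 in replicate 2. In TPM, TPX2 was lower in the replicate of high share in each of these lines. It was at 32.0 against 53.9 TPM in P1, 164 against 243 in P3, and 138 against 226 in P4 hESCs. The part of the mitochondrial share was not tested.

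The genes most like TPX2 over the samples were, on chromosome 20, KIF3B (r = 0.99), PDRG1 (0.98), PLAGL2 (0.97), SAMHD1 (0.96) and BCL2L1 (0.95). Elsewhere they were WIPI2, TMSB4X, RNF111, TCEAL9 and TRIP10, with r of 0.99 each. KIF3B, PDRG1, PLAGL2 and BCL2L1 lie in 20q11.21 with TPX2. None of these 10 genes was a partner, and the values of AURKA (0.953) and BCL2L1 (0.954) were almost equal.

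Within 20q11.21, 29 genes were tested and 15 were DEGs, all of them higher, with a median log2 fold change of 1.43. TPX2 had the second highest of the 29. On chromosome 20 outside the band, 467 genes had a median of -0.08, with 3 DEGs higher and 7 lower. AURKA, 24.6 Mb from TPX2, had 9 tested genes within 1 Mb, with log2 fold changes from -1.32 to 0.41 and a median of 0.04. The value of AURKA lay within that range. None of the 9 was called at an adjusted p below 0.05 in P3 and P4 against P1 and P2 hESCs, in edgeR or DESeq2. Before adjustment 1 had p below 0.05 in edgeR, a setting for which the share of all genes was not counted. By line, 2 were lower in P3 against P1 hESCs, 1 was lower in P3 against P2 hESCs and 2 were higher in P4 against P3 hESCs. The shares of all genes called there were 12.5%, 11.7% and 3.31%. In P4 against P1 hESCs none of the 9 was called.

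**Figure D4:**
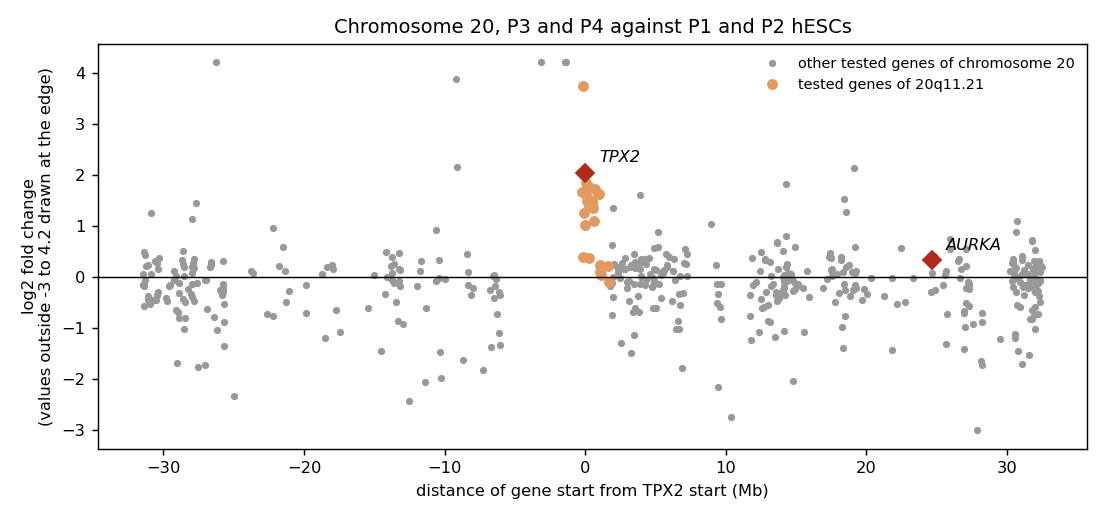
Log2 fold change in P3 and P4 against P1 and P2 hESCs (vertical axis) of 496 tested genes of chromosome 20 by the distance of their start from that of TPX2 (horizontal axis, Mb). Genes of 20q11.21 stand around a median of 1.43, and AURKA at 24.6 Mb lies at 0.32, where the 9 genes within 1 Mb of it run from -1.32 to 0.41.

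The wider spindle and mitosis machinery was read from 8 lists with 95 tested genes other than the members. Of these, 12 were higher and 1 was lower at an adjusted p below 0.05 in P3 and P4 hESCs, where 3.50% of all genes were higher and 4.04% lower, and the median log2 fold change was 0.23. Of the 95 values, 77 were above 0 and 18 below. Against P1 hESCs, the median of the 95 genes was 0.30 in P3, 0.18 in P4 and 0.01 in P2 hESCs. The count of 12 was 1 without the 3 libraries of high mitochondrial share and 1 in TPM, and it fell to between 2 and 5 on leaving out any single sample except P4 replicate 2, which gave 17.

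The chromosomal passenger complex and its recruiters had the highest median, 0.42 over 8 genes, with 3 higher. AURKC, the Aurora kinase best known from meiosis, was at 0.688 and 0.536 CPM in P1, 0.950 and 0.869 in P2, 4.11 and 5.27 in P3, and 6.69 and 7.67 in P4 hESCs. Its samples did not overlap, and its log2 fold change of 2.95 (SE 0.30, adjusted p = 2.22e-04 in edgeR's test) was above that of TPX2. Per length its level was 0.50 to 1.26 TPM in P1 and P2 and 3.79 to 9.92 TPM in P3 and P4 hESCs, below that of AURKA and AURKB in every sample. The others were CDCA8, or borealin (0.49, adjusted p = 0.0376), and the checkpoint kinase BUB1 (0.52, adjusted p = 0.0431), both in edgeR's test. Against P1 hESCs, 3 of the 8 were higher at an adjusted p below 0.05 in P3 and 1 in P4 hESCs. Of all 19499 genes tested, 876 were higher in P3 and 496 in P4 hESCs at that threshold.

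Among 12 mitotic entry kinases, cyclins and phosphatases, 4 were higher, namely CCNA2 (log2 fold change 0.69), TTK (0.66), CCNB1 (0.52) and CCNB2 (0.48), and the median was 0.37. Against P1 hESCs, 4 of the 12 were higher at an adjusted p below 0.05 in P3 and 0 in P4 hESCs. The medians were 0.48 and 0.33, and 12.5% and 5.94% of all genes were called in either direction. Of the 19499 genes tested, 876 were higher and 1559 lower in P3, and 496 were higher and 663 lower in P4 hESCs. Of 11 other mitotic kinesins, CENPE (0.93), which carries chromosomes to the metaphase plate, and KIF2A (0.56), which depolymerises microtubules, were higher. Of 10 spindle pole and NuMA partners, the G protein subunit GNAI3 (0.67) was higher. Of 13 importin and Ran genes that control the release of TPX2, KPNA1 (0.52) was higher. Against P1 hESCs, 3 of these kinesins, 2 of the spindle pole genes and 0 of the importin and Ran genes were higher in P3 hESCs. In P4 against P1 hESCs, 0 were higher in each of these lists. Among 9 other regulators and substrates of Aurora A, the kinase PAK1 (0.62) was higher and AJUBA was lower. Against P1 hESCs, 0 of these 9 were higher in P3 and 1 in P4 hESCs, and 1 was lower in each. AJUBA, a LIM protein that can activate Aurora A, went from 101 ± 2.93 CPM to 44.9 ± 8.53 CPM (SD, n = 4 each), a log2 fold change of -1.17 (SE 0.15, adjusted p = 0.00113 in edgeR's test).

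In P3 and P4 against P1 and P2 hESCs, none of the 19 genes of the gamma-tubulin ring and augmin complexes was called in edgeR's test. HAUS1 at 0.46 and HAUS4 at -0.47 were the extremes, with a median of 0.06. Before adjustment 3 had p below 0.05, and DESeq2 called none. By line, 1 was higher and 1 lower in P3 against P1 hESCs, where 12.5% of all genes were called. In P3 against P2 hESCs 2 were higher and 1 lower, with 11.7% of all genes called. In P4 against P3 hESCs 2 were higher, with 3.31% of all genes called. None of 13 G2/M transcription regulators was called, the highest being LIN37 at 0.70 and the lowest E2F4 at -0.27, with a median of 0.04; 1 had p below 0.05 before adjustment, and DESeq2 called 1. None of 15 DNA replication genes was called, from CCNE2 at -0.79 to RRM2 at 0.45, with a median of 0.10. Before adjustment 3 of them had p below 0.05 in edgeR, and DESeq2 called 2. In P3 against P1 hESCs 2 were higher at an adjusted p below 0.05, and in P3 against P2 hESCs 1 was. In P4 against P3 hESCs all 15 values were below 0, with a median of -0.33 and none called. Shares of all genes were not counted before adjustment or in DESeq2, so those counts in these lists have no background.

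**Figure D5:**
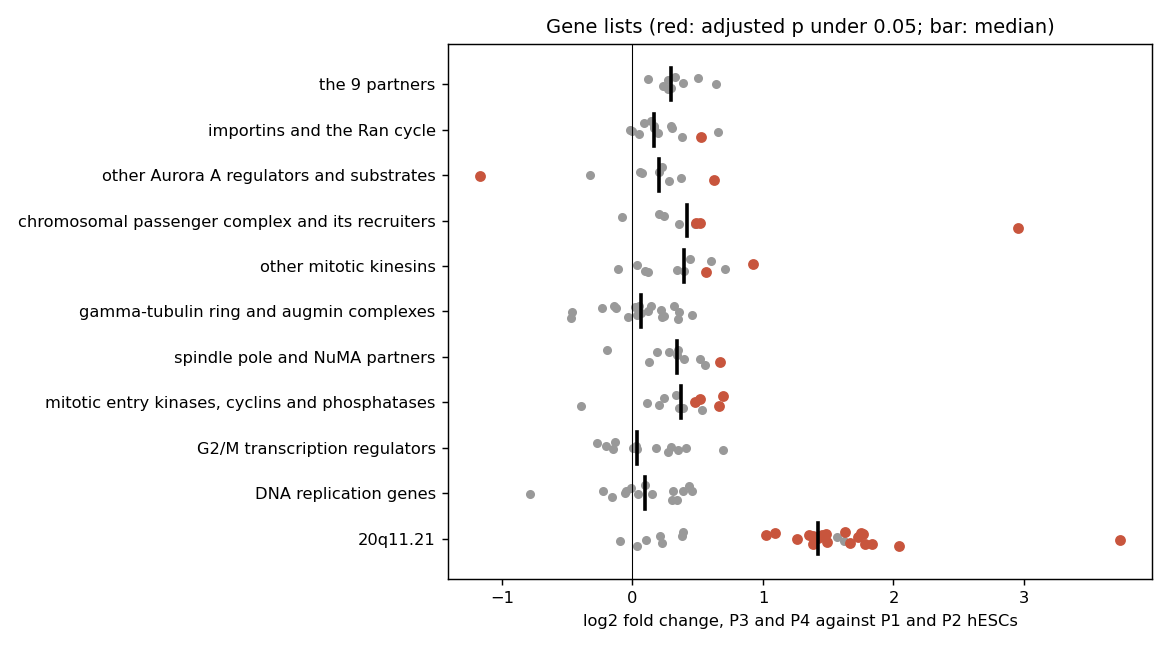
Log2 fold change in P3 and P4 against P1 and P2 hESCs (horizontal axis) of the genes of each list, with red points for an adjusted p below 0.05 and black bars for the median. The partners, at a median of 0.30, have no red point; AURKC at 2.95 and AJUBA at -1.17 stand outside the other spindle and mitosis genes, and most genes of 20q11.21 lie above 1.

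The mean transcript length that RSEM assigned, a measure of the isoform mix, was steady for TPX2, at 3497 bases in every sample, and was 4860 bases in every sample for KIF11. It varied by 914 bases over the samples in KIF15, 697 in NUMA1, 635 in HMMR and 611 in BIRC5. In each of these genes the ranges of the groups overlapped.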

How the data were processed

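RNA of H9 hESCs was sequenced in 8 samples, 2 for each of P1 to P4, from libraries made with a strand-specific mRNA kit. The submitters' processing notes name FastQC, Trim Galore, STAR 2.7.3a, RSEM 1.3.3 and the build GRCh38; the annotation and the strand setting of the counting are not given in the sources used here. The authors deposited, per sample and gene, expected counts estimated by RSEM, which are not normalized, and TPM values, which RSEM scales by effective length and total; deposited FPKM values were not tested. The authors' tables also hold a transcript length per gene.

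Expected counts were rounded and tested in R 4.3.3 with edgeR 4.0.16 (TMM factors, filterByExpr by the 4 lines, quasi-likelihood test), P3 and P4 against P1 and P2 hESCs as 2 groups of 4 and single lines as 4 groups of 2. The SE was obtained from the log2 fold change and the F statistic. Single values were tested by exact permutation of samples, which takes the 2 samples of a line as independent. The scripts were tested on simulated data. Alternatives were DESeq2 1.42.0, its size factors, no filter, the replicate number as a block, 4 groups, limma 3.58.1 on log2(TPM + 1) and log2(TPM + 0.1), no mitochondrial genes, and samples left out. The depth puts 3 counts at 0.0787 to 0.112 CPM, below every value reported for a member; counting error only is covered. Positions came from GENCODE 29, bands from circlize 0.4.16, and figures from matplotlib 3.10.9.

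The members and lists were chosen with earlier results of these data known. All members were named, and from each list the called genes, at most 4 by p, or else the highest and the lowest. The genes most like TPX2 were the 5 on and the 5 off chromosome 20 with the highest r.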

Additional observations from a re-analysis of the deposited data

Results flagged for a closer look

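In 20 groups of 4 samples, the 10 genes in P1 and P2 and in P3 and P4 hESCs, 3 held a sample whose gap to its nearest neighbour took an unusually high share of the range of the group in log2 CPM, where chance gives about 1. The share was 0.863 for AURKA in P3 and P4 hESCs, where P4 replicate 1 at 81.0 CPM lay below the others at 94.4 to 96.7 CPM. It was 0.949 for BORA in P1 and P2 hESCs, where P2 replicate 1 at 26.0 CPM lay above the others at 20.2 to 20.5 CPM. It was 0.854 for KIF15 in P1 and P2 hESCs, where P1 replicate 2 at 31.6 CPM lay above the others at 24.3 to 25.3 CPM. Without P4 replicate 1 the log2 fold change of AURKA was 0.38 (adjusted p = 0.124 in edgeR's test, where all alternatives gave 0.0552 to 0.744).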

How the results depend on the processing

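TPX2 stayed a DEG, and the only one of the 10 genes, under all 17 alternatives, with a log2 fold change of 1.90 to 2.15. Of 170 values of single genes under alternatives, 168 kept their direction and side of the DEG thresholds and 2 reversed: NUMA1 was at -0.0352 in limma on log2(TPM + 1) and at -0.0360 on log2(TPM + 0.1). Those scalings moved the median of all genes to -0.0923 and -0.142, relative to which NUMA1 was at 0.0570 and 0.106. They put the partners' median at 0.129 and 0.135, or 0.221 and 0.277 relative to all genes. At an adjusted p below 0.05, 2 members passed in DESeq2 and with 4 groups (TPX2 and KIF11), and 1 to 3 with a sample left out, the third being HMMR without P4 replicate 2; in P3 against P1 hESCs the count went from 1 to 2 (TPX2 and HMMR). The DEGs over all genes, 429, were 907 in DESeq2, 919 with 4 groups, 738 without a filter, 242 on log2(TPM + 1), 282 on log2(TPM + 0.1), 61 without the 3 libraries of high mitochondrial share, 227 to 456 with a sample left out, and 1470 at an adjusted p below 0.05 with no fold minimum. The 12 higher genes of the 8 spindle and mitosis lists, recounted under alternatives chosen after seeing the data, were 20 in DESeq2, 19 with 4 groups, 1 on either log2(TPM) scale, 1 without the 3 libraries, and 2 to 17 with a sample left out. The causes were not tested.

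With the replicate number as a block (replicate block), 343 genes were DEGs, TPX2 was at 2.04 (adjusted p = 4.60e-04 in edgeR's test), no call among the 10 genes changed, and 7 list genes were higher in place of 12. Over the genes tested with counts in every sample, the differences between replicates 1 and 2 correlated between lines with r from -0.07 to 0.12. Such an r cannot show whether a batch was shared by some lines or touched only some genes. With 2 samples per line, the HMMR difference between P3 and P4 hESCs, -0.84 with an SE of 0.26, had an adjusted p of 0.105 in edgeR's test.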
